A study of Rattus norvegicus with 9 samples.

Results

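A group of 10 genes of the p38 kinase and Mapkapk2 pathway was followed in left ventricle RNA from Sprague-Dawley rats, 10 of the 22608 gene names in the deposited tables. They are the p38 kinases Mapk14 (p38 alpha), Mapk11 (p38 beta) and Mapk12 (p38 gamma), their activating kinases Map2k3 and Map2k6, the downstream kinases Mapkapk2 (MK2), Mapkapk3 (MK3) and Mapkapk5 (MK5), the phosphatase Dusp1 and the mRNA-decay protein Zfp36. The genes were picked by name, with the higher level of Mapkapk2 in Ang II with NaBu than in Ang II alone already known, and their rows were summed by gene name over 19 of 55767 transcripts. Values of Ang II with NaBu against Ang II are therefore given as a description, without a test. Rats received saline, angiotensin II (Ang II, a peptide hormone that raises blood pressure), or Ang II together with sodium butyrate (NaBu, a short-chain fatty acid salt that inhibits histone deacetylases). Rats were labelled as 8 weeks old plus 28 days, and treatment lasted 28 days. Neither a dose, a route nor a genetic change is given. Each group had 3 libraries. Nothing in the labels says that they came from separate animals, and p-values then cover only the variation among these libraries, which may be technical. Ang II was given to both of the last groups, so NaBu without Ang II was not analysed here.

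The p38 kinases are mitogen-activated protein kinases that respond to stress, cytokines and mechanical load. Map2k3 and Map2k6 activate them by phosphorylation, and active p38 in turn phosphorylates Mapkapk2 and Mapkapk3, which act on small heat shock proteins and on RNA-binding proteins such as Zfp36. Zfp36 (tristetraprolin) promotes decay of mRNAs with AU-rich elements, and phosphorylation by Mapkapk2 restrains it, while Dusp1 removes phosphate from p38 and ends the signal. In the heart the pathway is known for its part in responses to load and to angiotensin. Its activity depends on phosphorylation, which mRNA levels do not measure.

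Promoter sequences are shown for 4 members. They are the 2 kinases whose NaBu libraries all lay above every other library, and Zfp36 and Dusp1, which were lower with NaBu than in Ang II. Mapk12, whose promoter is not shown, was also lower with NaBu than in Ang II (log2 difference -0.44). Each sequence is the 250 bases before the RefSeq start of the gene in the rat build GRCr8, read on the strand of the gene. They were found by symbol for 9 of the 10 members, and Mapkapk5 was not among them. The capitals mark CCTTTAAGG in the first 2, the EGR site GCGGGGGCG in Zfp36 and the cAMP response element TGACGTCA in Dusp1.
Mapkapk2, chr13:45112327-45112576, minus strand: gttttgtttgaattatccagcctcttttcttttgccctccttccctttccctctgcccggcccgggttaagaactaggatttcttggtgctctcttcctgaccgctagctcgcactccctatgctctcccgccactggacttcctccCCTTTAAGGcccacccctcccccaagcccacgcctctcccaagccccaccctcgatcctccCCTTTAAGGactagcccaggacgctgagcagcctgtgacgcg
Mapkapk3, chr8:116842229-116842478, minus strand: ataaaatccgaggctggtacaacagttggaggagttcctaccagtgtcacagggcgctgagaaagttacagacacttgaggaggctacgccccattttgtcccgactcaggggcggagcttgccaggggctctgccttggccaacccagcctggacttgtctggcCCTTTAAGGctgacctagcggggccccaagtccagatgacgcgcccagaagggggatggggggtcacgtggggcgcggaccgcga
Zfp36, chr1:92799109-92799358, minus strand: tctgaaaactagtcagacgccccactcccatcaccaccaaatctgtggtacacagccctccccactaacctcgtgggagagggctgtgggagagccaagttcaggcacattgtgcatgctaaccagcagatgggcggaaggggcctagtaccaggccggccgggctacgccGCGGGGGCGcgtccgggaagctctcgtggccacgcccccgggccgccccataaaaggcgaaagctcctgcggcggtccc
Dusp1, chr10:17184603-17184852, plus strand: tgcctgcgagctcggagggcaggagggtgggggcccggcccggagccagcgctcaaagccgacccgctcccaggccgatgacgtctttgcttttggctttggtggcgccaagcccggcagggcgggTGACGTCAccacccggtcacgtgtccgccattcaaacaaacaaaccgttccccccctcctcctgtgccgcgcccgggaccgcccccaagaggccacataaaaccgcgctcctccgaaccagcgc

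The Mapkapk2 promoter holds CCTTTAAGG at 2 places, 103 to 95 and 42 to 34 bases before the start, and the Mapkapk3 promoter holds it 85 to 77 bases before the start. These letters were picked after the sequences had been read, and 0.46% of 33469 RefSeq promoters of this length hold them on either strand. The EGR site lies 79 to 71 bases before the Zfp36 start, and 2.45% of all promoters hold it. The cAMP response element lies 124 to 117 bases before the Dusp1 start, and 1.59% of all promoters hold it. Among the 9 promoters, 7 hold the GC box GGGCGG on either strand, against 30.5% of all promoters, and the Mapkapk2 promoter does not. GC content was 58.8% in the Mapkapk2 promoter, 61.6% in Mapkapk3, 65.2% in Zfp36 and 68.8% in Dusp1, against a median of 51.2% over all promoters. None of the 9 holds the exact letters TGANTCA of the AP-1 site (6.34% of all promoters) or TATAAA of the TATA box (12.9%). Only these letters were searched, so variant forms of either site are not covered. A match is a description of the letters, and the start of the transcript that was counted for Mapkapk2 may differ from the RefSeq start.

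Levels below are CPM of the estimated counts (scaled to a common library total), with library sizes set by the trimmed mean of M-values, and groups were compared with edgeR on the 15467 genes that passed its filter on low counts. All 10 members passed. Totals were 29284780 to 49865446 estimated counts per library. Transcript lengths were not used, so levels are compared between libraries and not between genes. Saline, Ang II and NaBu were deposited in separate tables. A difference between the groups and a difference in how the tables were made cannot be told apart. The 10 genes listed as ventricular cardiomyocyte markers summed to 48144 to 79495 CPM in saline. Their sum was 65383 to 67313 CPM in Ang II and 71470 to 79493 CPM with NaBu. It is a description and not a check of the ventricular label, since the list includes general cardiomyocyte genes. Saline replicate 2 stood apart, with Nppa, the atrial natriuretic peptide gene, at 3464 CPM and with the lowest ventricular sum. Nppa was at 186 CPM in saline replicate 3 and at 22.9 to 80.6 CPM in the remaining libraries. In tissue RNA, fewer cells of a type and less RNA per cell cannot be told apart.

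Mapkapk2, the principal kinase activated by p38 in the control of mRNA stability, was the member that differed most between the groups. Its level was 160.5, 130.3 and 238.6 CPM in saline replicates 1, 2 and 3. It was 173.4, 200.1 and 174.6 CPM in Ang II replicates 1, 2 and 3, and 458.5, 415.0 and 445.8 CPM in the NaBu libraries, which carry the numbers 2, 4 and 6. All 3 NaBu libraries lay above all 6 others, and the saline and Ang II libraries overlapped. The means were 176 ± 55.9 CPM in saline, 183 ± 15.1 CPM in Ang II and 440 ± 22.4 CPM with NaBu (SD, n = 3 each). NaBu against saline gave a log2 difference of 1.32 (SE 0.191, ratio of means 2.49, edgeR adjusted p = 0.0139). These NaBu libraries are those on which the gene was picked, so this is not independent of that choice. The level was 2.41 times that of Ang II, a log2 difference of 1.27 (SE 0.19). Ang II against saline gave 0.05 (SE 0.188, edgeR adjusted p = 0.992). Among the 10834 genes with a mean of at least 5 CPM, Mapkapk2 ranked 10 by size of the rise against saline and 21 against Ang II.

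**Figure D1:**
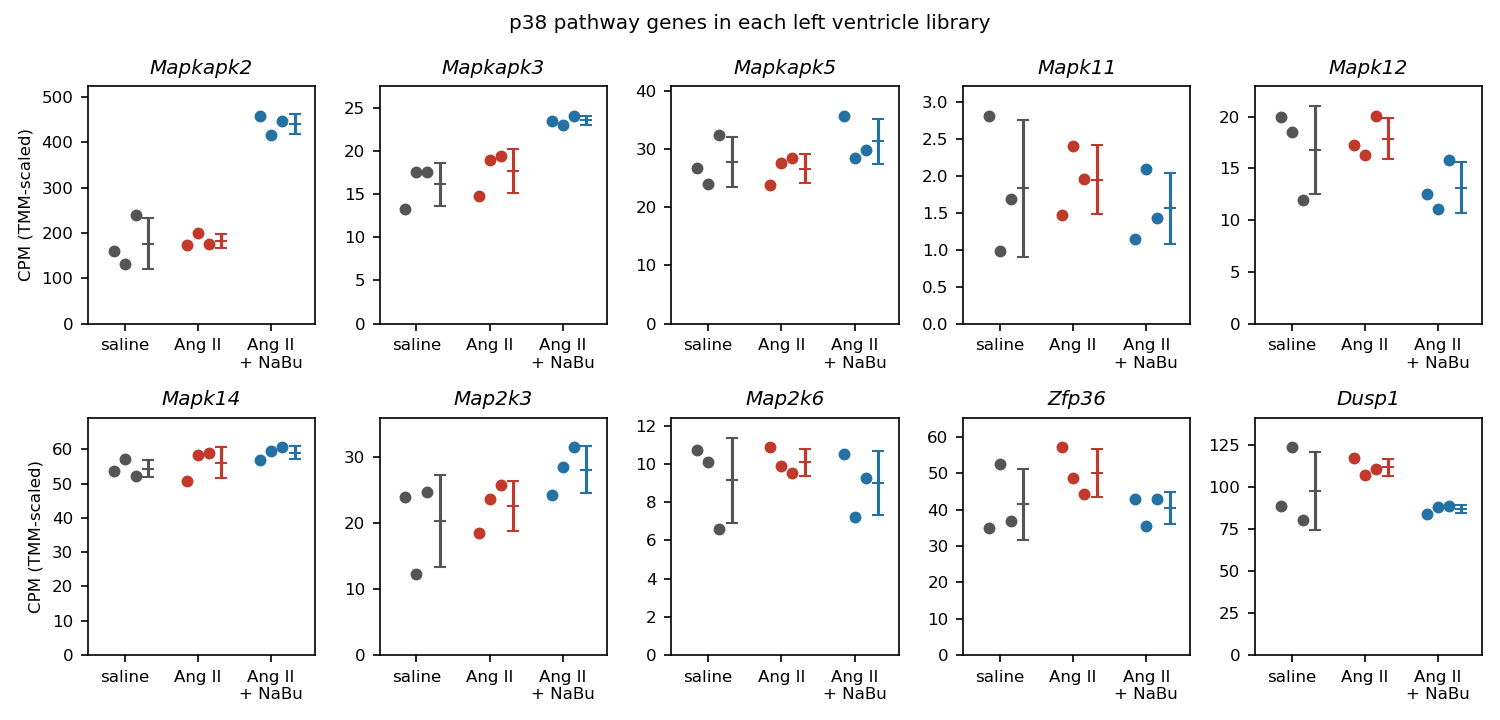
Level of each of the 10 genes in CPM (y axis, from 0, a separate scale for each gene) in each library of the 3 groups on the x axis. Points are libraries, and the bars to their right give mean ± SD (n = 3). The Mapkapk2 points with NaBu sit at 415.0 to 458.5 CPM, above all 6 others.

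The rise of Mapkapk2 against saline did not always keep its call. Every NaBu library lay above every saline library, so leaving out libraries could not turn its direction, and nothing is read from that. The log2 difference lay between 1.16 and 1.60 under all 17 alternatives that were run. The lowest came without saline replicate 2 and the highest without saline replicate 3, so the size rests in part on how far the saline libraries lie apart. The adjusted p was above the threshold of 0.05 with only the 2 groups in the fit (0.069), with the highest transcript per gene (0.0676), without NaBu replicate 2 (0.0591) and without NaBu replicate 6 (0.0795). With DESeq2 it was 6.36e-10.

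**Figure D2:**
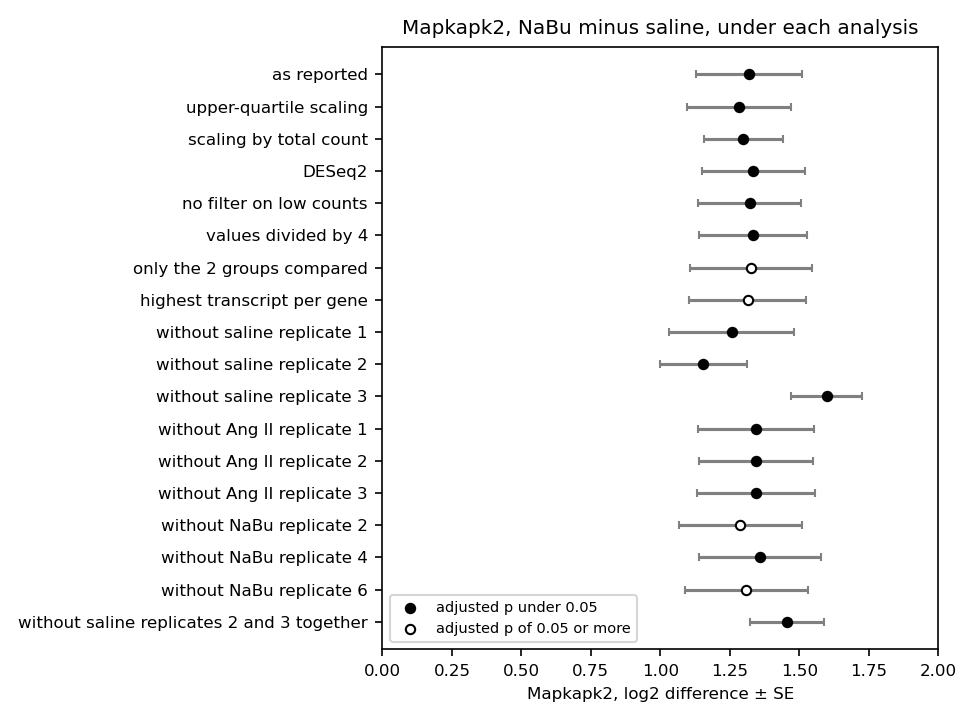
Log2 difference of Mapkapk2, NaBu minus saline, on the x axis, with 1 line per analysis on the y axis. Points give the estimate and bars its SE, filled where the adjusted p was under 0.05. The estimates lie between 1.16 and 1.60, and 4 of the 18 points are open.

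All counted Mapkapk2 signal was on the predicted transcript XM_017598692.1. Its estimated counts were 5352, 4898 and 6193 in saline, 5758, 6891 and 7558 in Ang II and 16758, 15844 and 21423 with NaBu. The curated transcript NM_178102.2 was listed at 0 in all 9 libraries, so the rise is a rise of a single model. In a fit over 31914 transcripts that model gave 1.34 for NaBu against saline (SE 0.205, edgeR adjusted p = 0.101), a value that did not pass. In the RefSeq order of GRCr8, Il10 lies next to Mapkapk2 on one side, and on the other side Dyrk3 follows after an unnamed locus. Il10, which encodes an anti-inflammatory cytokine, had no counts in saline or Ang II and averaged 0.0365 CPM with NaBu. Dyrk3, a protein kinase gene, averaged 4.76 CPM in saline, 5.62 CPM in Ang II and 6.16 CPM with NaBu (NaBu against saline 0.37, SE 0.205, edgeR adjusted p = 0.293).

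Mapkapk3, the close relative of Mapkapk2 that is also activated by p38, was at 13.3, 17.6 and 17.5 CPM in saline. It was at 14.8, 18.9 and 19.4 CPM in Ang II and at 23.5, 23.0 and 24.1 CPM with NaBu. Every NaBu library lay above every other library. The means were 16.1 ± 2.46, 17.7 ± 2.55 and 23.5 ± 0.516 CPM (SD, n = 3 each). The log2 difference of NaBu from saline was 0.55 (SE 0.145, ratio of means 1.46, edgeR adjusted p = 0.0567), which did not pass, while DESeq2 gave an adjusted p of 0.0105. NaBu stood at 1.33 times Ang II (log2 difference 0.41, SE 0.144), and Ang II against saline gave 0.14 (SE 0.145, edgeR adjusted p = 0.962). Mapkapk5, which is activated by p38 in some settings and is also tied to the atypical kinase Mapk6, was at 26.8, 24.0 and 32.4 CPM in saline. It was at 23.8, 27.5 and 28.5 CPM in Ang II and at 35.7, 28.5 and 29.8 CPM with NaBu. Its groups overlapped, with means of 27.7 ± 4.27, 26.6 ± 2.45 and 31.3 ± 3.84 CPM, and NaBu against saline gave 0.18 (SE 0.138, edgeR adjusted p = 0.468).

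Among the p38 kinases themselves no level passed a test. Mapk14, the main p38 kinase of the heart, was at 53.8, 57.1 and 52.2 CPM in saline, 50.9, 58.5 and 59.1 CPM in Ang II and 57.0, 59.4 and 60.6 CPM with NaBu. Its highest library was 1.19 times its lowest, the narrowest range of the 10 members. Its log2 difference was 0.12 for NaBu against saline (SE 0.0914, edgeR adjusted p = 0.465) and 0.05 for Ang II against saline (SE 0.0914, edgeR adjusted p = 0.983). Mapk12, the p38 kinase of striated muscle, was at 19.9, 18.5 and 11.9 CPM in saline, 17.3, 16.3 and 20.1 CPM in Ang II and 12.6, 11.03 and 15.8 CPM with NaBu. The 3 NaBu libraries lay below the 3 Ang II libraries, but saline replicate 3 lay within the range of the NaBu libraries. It stood at -0.36 for NaBu against saline (SE 0.203, edgeR adjusted p = 0.312), and the log2 difference from Ang II was -0.44 (SE 0.203). Mapk11 was thinly counted, with 37 to 94 estimated counts a library. Its level was 0.984 to 2.82 CPM in saline, 1.48 to 2.41 CPM in Ang II and 1.15 to 2.10 CPM with NaBu, so its groups overlapped. The Mapk11 difference of NaBu from saline was -0.23 (SE 0.433, edgeR adjusted p = 0.789). Mapk13, the p38 delta gene that follows Mapk14 after an unnamed locus and is not one of the 10, had 0 to 16 estimated counts a library and was not tested.

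The activating kinases did not pass a test either. Map2k3, which activates p38 kinases, was at 24.0, 12.3 and 24.7 CPM in saline. It was at 18.5, 23.7 and 25.9 CPM in Ang II and at 24.3, 28.6 and 31.5 CPM with NaBu. The low value was that of saline replicate 2, the library with the high atrial transcripts. NaBu against saline gave 0.47 (SE 0.242, ratio of means 1.39, edgeR adjusted p = 0.258) and 0.23 without that library. Map2k6, the other activating kinase, was at 10.7, 10.1 and 6.59 CPM in saline, 10.9, 9.90 and 9.50 CPM in Ang II and 10.5, 7.20 and 9.28 CPM with NaBu. All 3 of its groups overlapped, and NaBu against saline gave -0.02 (SE 0.206, edgeR adjusted p = 0.959).

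Dusp1, the nuclear phosphatase that inactivates p38, was at 88.9, 123.7 and 80.4 CPM in saline, 117, 107 and 111 CPM in Ang II and 83.8, 88.2 and 88.7 CPM with NaBu. The 3 NaBu libraries lay below the 3 Ang II libraries, and saline replicate 2 had the highest value of all 9. NaBu averaged 0.778 times Ang II, a log2 difference of -0.36 (SE 0.144). The Dusp1 difference of NaBu from saline was -0.17 (SE 0.144, edgeR adjusted p = 0.514), and 0.05 without saline replicate 2, so that library set its sign. Ang II against saline gave 0.19 (SE 0.144, edgeR adjusted p = 0.939). Zfp36 was at 35.0, 52.7 and 36.8 CPM in saline, 57.2, 48.6 and 44.3 CPM in Ang II and 43.0, 35.5 and 43.0 CPM with NaBu. Its NaBu libraries also lay below its Ang II libraries, with a log2 difference of -0.31 (SE 0.166). NaBu against saline gave -0.04 (SE 0.166, edgeR adjusted p = 0.918), and 0.19 without saline replicate 2. Both genes were highest in the same library within saline (replicate 2) and within Ang II (replicate 1).

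**Figure D3:**
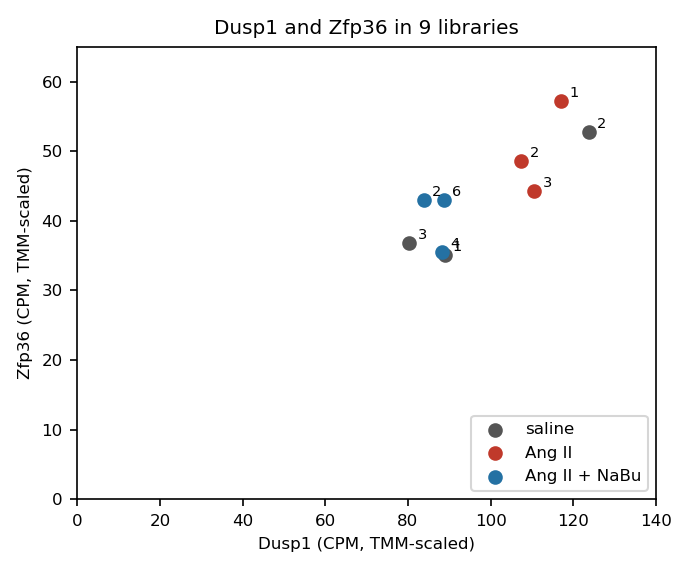
Level of Zfp36 (y axis) against Dusp1 (x axis) in each library, both in CPM from 0. Points are the 9 libraries, coloured by group and labelled by their number. The NaBu libraries lie at 83.8 to 88.7 CPM of Dusp1, the Ang II libraries at 107 to 117 CPM.

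Set side by side, 0 of the 10 members were called for Ang II against saline, where edgeR called 0% of all genes. With no adjustment, 918 genes (5.94%) and 0 members had a p under 0.05, and DESeq2 called 57 genes and 0 members. No member had groups that did not overlap, against 9.9% of all genes. The members' median log2 difference was 0.11 and that of all genes -0.00451, and 9 of the 10 members were higher in Ang II, against 49.0% of all genes. Mapkapk5 alone was lower, and it stood at 0.011 with scaling by total count. Mapk11, Mapk12, Map2k3 and Map2k6 changed sign without saline replicates 2 and 3 together. Those 4, Mapkapk2 and Mapkapk5 also changed sign when single libraries were left out. For NaBu against saline 1 member of 10 was called, Mapkapk2, which rose, where 5.06% of all genes were called and 3.01% rose. Nothing is read from this count either, since Mapkapk2 was picked on the same NaBu libraries. The groups did not overlap for 2 members, Mapkapk2 and Mapkapk3, against 28.6% of all genes, and the median was 0.05 for the members and -0.05 for all genes. For NaBu against Ang II 5 members had groups that did not overlap, against 35.6% of all genes. Mapkapk2 and Mapkapk3 were higher with NaBu, and Mapk12, Zfp36 and Dusp1 were lower. In that comparison 1 member was past the threshold and 1.6% of all genes were, and again nothing is read from the count. The 3 comparisons share their groups in pairs.

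**Figure D4:**
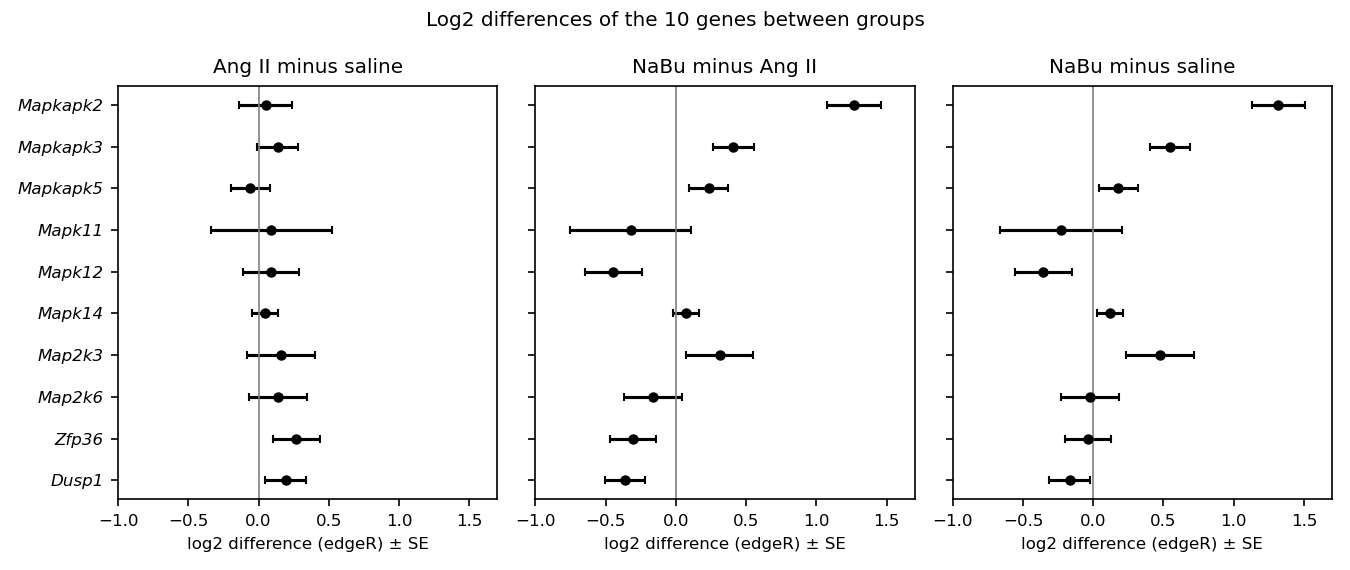
Log2 difference (x axis) of each of the 10 genes (y axis) in the 3 comparisons, Ang II minus saline, NaBu minus Ang II and NaBu minus saline. Points are edgeR estimates and bars their SE, from fits with 3 libraries a group. Mapkapk2 stands at 1.27 and 1.32 in the 2 comparisons with NaBu and at 0.05 for Ang II minus saline.

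Summed levels of some lists of cell type markers differed between the NaBu and Ang II libraries. For 10 endothelial markers the sum was 1736 to 2037 CPM with NaBu and 2100 to 2385 CPM in Ang II. All 10 were lower, and edgeR called 1, Egfl7. The 10 erythroid and platelet markers were lower as well, with sums of 2132 to 2714 CPM and 2394 to 4230 CPM that overlapped, and 1 of them, Itga2b, was called. The 8 smooth muscle and pericyte markers were lower too, at 1231 to 1510 CPM against 1465 to 1561 CPM, as were the 8 lymphocyte markers, at 6.05 to 8.32 CPM against 11.5 to 13.2 CPM. The sum of the genes listed as ventricular cardiomyocyte markers was higher with NaBu, with 8 of 10 genes higher and Irx4 and Tnnt2 lower. In these last 3 lists edgeR called 0 genes. At an unadjusted p under 0.05 there were 0, 1 and 3, and DESeq2 called 0, 0 and 1. Fibroblast markers were lower than in saline for 10 of 10 both with Ang II and with NaBu, and 7 of 10 were lower in Ang II than with NaBu. Their sums were 2662 to 4532 CPM in saline, 2626 to 2775 CPM in Ang II and 2637 to 3317 CPM with NaBu. Of 8 macrophage markers 4 were higher and 4 lower with NaBu than in Ang II, with sums of 309 to 341 CPM and 292 to 335 CPM. Of 7 neutrophil and mast markers tested 6 were lower with NaBu, with sums of 39.9 to 47.1 CPM and 48.6 to 63.8 CPM. Of 10 atrial markers 7 were higher with NaBu and 3 lower. Among the macrophage, neutrophil and mast, and atrial markers edgeR and DESeq2 called 0. The part of these differences in the levels of the 10 genes was not tested.

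The transcript models of 3 members shared the counts of their gene in ways that differed between libraries of the same group. For Mapkapk3 the curated model NM_001012127.1 took 88.3% of the counts in saline replicate 1 and 0% in replicates 2 and 3. It took 39.7% in Ang II replicate 1, 48.1% in NaBu replicate 4 and 0% in the remaining Ang II and NaBu libraries. The Mapkapk3 model XM_008766531.2 took 25.7% to 44.0% in Ang II, 0% to 32.5% with NaBu and at most 0.220% in saline. For Mapk12 the predicted model XM_017595075.1 took 17.7%, 3.60% and 0% in saline, 52.7%, 33.5% and 20.2% in Ang II and 63.0%, 10.5% and 63.0% with NaBu. For Mapk14 the curated model NM_031020.2 took between 1.67% and 45.6% of the counts, both in saline. These models were named after their values were seen, and no share was tested. In the transcript fit 14 of the 19 member transcripts passed the filter and edgeR called 0 for Ang II against saline and 0 for NaBu against saline. The unadjusted p was under 0.05 for 1 of them for Ang II against saline (the Mapkapk3 model XM_008766531.2). For NaBu against saline it was so for 3, the counted Mapkapk2 model, XM_008766531.2 of Mapkapk3 and NM_021746.1 of Mapk12. Over all transcripts edgeR called 0.0125% and 0.0689% in these comparisons. For NaBu against Ang II it called 0.0157% of all transcripts and 0 of the 14, from which nothing is read.

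**Figure D5:**
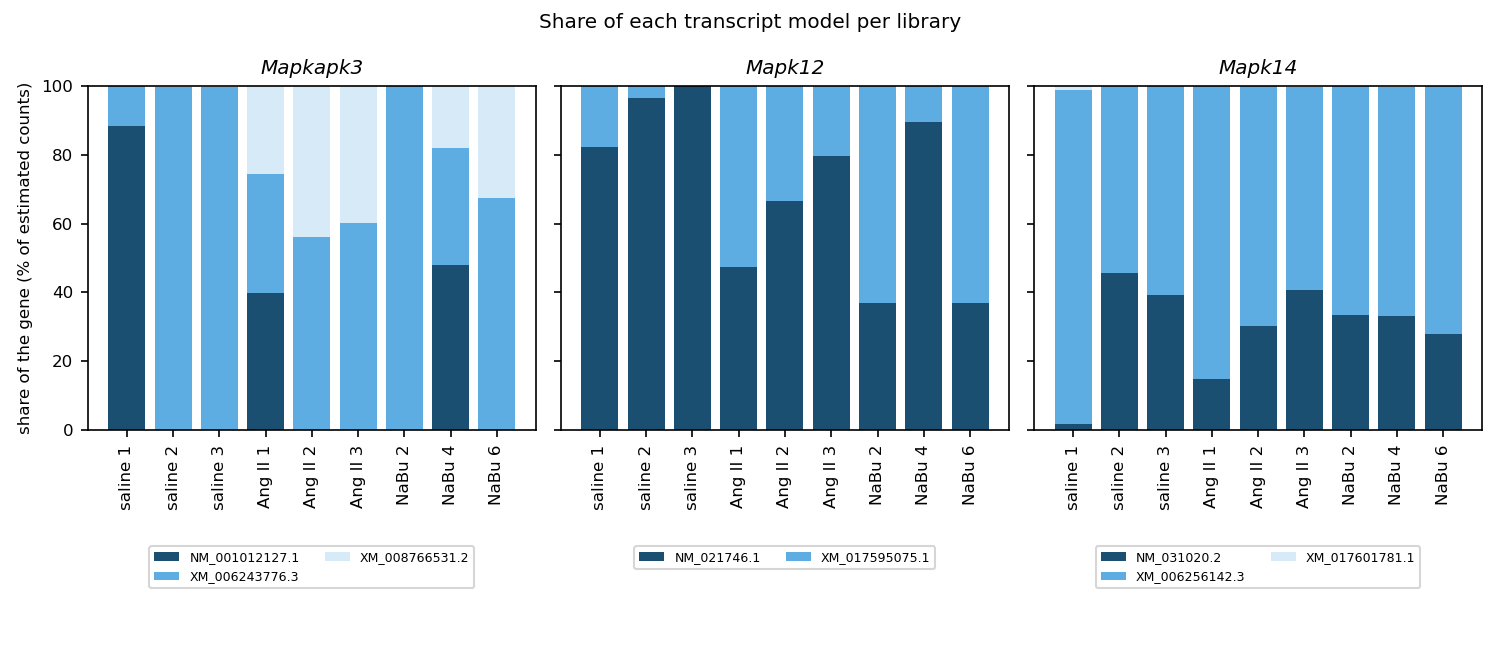
Share of each gene's estimated counts on each of its transcript models (y axis, percent) in each of the 9 libraries (x axis) for Mapkapk3, Mapk12 and Mapk14. Stacked colours are transcript models. Mapkapk3 NM_001012127.1 takes 88.3% in saline replicate 1 and 0% in saline replicates 2 and 3.

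Related genes were read from 5 lists of upstream kinases and scaffolds, substrates, phosphatases, AU-rich mRNAs, and the ERK and JNK modules. The last list holds kinase cascades parallel to p38 and gave 12 of the 90 genes that could be tested. All 90 are termed other pathway genes below. For Ang II against saline edgeR and DESeq2 called 0 of 90, and 4 had an unadjusted p under 0.05. For NaBu against saline 6 rose and 1 fell, which is 7.78% against 5.06% of all genes, and the median was 0.06 against -0.05. From the list of substrates and downstream kinases came Mef2d, at 180.1 CPM against 125.8 CPM (0.52, SE 0.1, edgeR adjusted p = 0.0262), and Mef2a (0.41, SE 0.0926, edgeR adjusted p = 0.0367), both transcription factors of muscle genes. Elk1, a transcription factor phosphorylated by mitogen-activated kinases, rose by 0.46 (SE 0.104, edgeR adjusted p = 0.0368). Taok1, an upstream kinase, rose by 0.38 (edgeR adjusted p = 0.0486) and the AU-rich mRNA Ier3 by 0.62 (edgeR adjusted p = 0.0366). Nlk, from the ERK and JNK list, rose by 0.36 (edgeR adjusted p = 0.0342). Lsp1, a leukocyte protein phosphorylated by Mapkapk2, fell by 0.51 (SE 0.128, edgeR adjusted p = 0.0488). Its mean was 39.6 CPM in saline, 28.9 CPM in Ang II and 27.8 CPM with NaBu. It was thus also lower in Ang II alone than in saline (-0.46, SE 0.128, edgeR adjusted p = 0.719). The number of calls among these 90 genes was 16 by DESeq2 and 0 with scaling by total count, with only the 2 groups in the fit, with the highest transcript per gene, and without saline replicates 2 and 3 together. It was also 0 without Ang II replicate 2, without Ang II replicate 3 and whichever NaBu library was left out. For NaBu against Ang II 2 of 90 were called, against 1.6% of all genes. The number was 10 by DESeq2, and it was 0 with scaling by total count, with the highest transcript per gene, without saline replicate 1, and whichever Ang II or NaBu library was left out. Mef2d rose by 0.52 (SE 0.1, edgeR adjusted p = 0.0427), and Map3k12, a kinase that feeds JNK and p38, fell by 0.63 (SE 0.12, edgeR adjusted p = 0.0427). Of the 18 phosphatases edgeR called 0 in each comparison. Their unadjusted p was under 0.05 for 0, 3 and 5 for Ang II against saline, NaBu against Ang II and NaBu against saline, and DESeq2 called 0, 0 and 2.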

How the data were processed

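The authors supplied transcript-level estimated counts in 3 tables, and per the file headers each row names a transcript and a gene before its 3 libraries. In the saline table these deposited values carry a stray line end, which was stripped. Bowtie 0.12.2 and the mouse build mm8 are named per the submitters' processing notes, although the transcripts are rat RefSeq entries. How reads were counted, on which annotation and with what strand setting is "not given in the sources used here", and paralogs or overlapping genes may share reads. Per the labels, libraries were made with a TruSeq kit from Trizol-extracted, DNase I-treated RNA. Low values of 8 and 12 were more frequent than 6 and 10, so dividing all values by 4 was an alternative.

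Values of transcripts were rounded to whole numbers, which changed none, and summed by gene name. edgeR 4.0.16 (quasi-likelihood test, trimmed-mean scaling factors of 0.887 to 1.14, filterByExpr) in R 4.3.3 fitted all 3 groups together, with Benjamini-Hochberg adjustment over 15467 genes and a threshold of 0.05. The common biological coefficient of variation was 0.256. DESeq2 1.42.0, other scalings, no filter, 2-group fits, the highest transcript per gene and leaving out libraries were alternatives. Leaving out saline replicates 2 and 3 together leaves a single saline library in the fit. The script was tested on simulated data. Replicate numbers of saline and Ang II were checked for pairing, and same-numbered libraries were not clearly more alike than others. With 3 libraries a group the check cannot exclude a pairing. Named genes are the 10 members, every called gene of the pathway lists and up to 2 list members at each end. The members and lists were chosen with earlier results of these data known. Promoters are from RefSeq (GRCr8).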

Additional observations from a re-analysis of the deposited data

How the results depend on the processing

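Counts of called genes depended strongly on the processing. For Ang II against saline, 0 genes were called as reported, 57 by DESeq2, 1 with only the 2 groups in the fit, 3 with the highest transcript per gene, 11 without saline replicates 2 and 3 together and 1 with the replicate number as a block. Leaving out single libraries gave 0 to 7, and 0 to 1 for the other pathway genes. For NaBu against Ang II, 248 genes became 4 with scaling by total count, 1515 by DESeq2, 1802 with 2 groups, 5 with the highest transcript and 1695 without saline replicates 2 and 3, and 1 to 1482 without single libraries. Its members past the threshold went from 1 to 2 with 2 groups, 0 with the highest transcript and 2 without saline replicates 2 and 3 (0 to 2 without single libraries), the second being Dusp1, and the other pathway genes from 2 to 0 with total count, 10 by DESeq2, 4 with values divided by 4, 13 with 2 groups, 0 with the highest transcript and 12 without those 2 libraries (0 to 10). For NaBu against saline, 782 genes became 411 with total count, 1990 by DESeq2, 9 with 2 groups, 21 with the highest transcript and 109 without saline replicates 2 and 3 (6 to 1303). Its called members went from 1 to 2 by DESeq2 and with values divided by 4, and to 0 with 2 groups and with the highest transcript (0 to 2). Nothing is read from these member counts either. The other pathway genes went from 7 to 0 with total count, 16 by DESeq2, and 0 with 2 groups, the highest transcript or without those 2 libraries (0 to 11). The cause was not tested. The share of higher calls also moved with scaling: 100 rose and 148 fell for NaBu against Ang II as reported, 87 and 209 with upper-quartile scaling. For NaBu against saline 465 rose and 317 fell, 383 and 396 with upper-quartile scaling, and 287 and 124 with total count. Total-count scaling moved the median of all genes from -0.0247 to -0.133 for NaBu against Ang II.

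For Ang II against saline, 163 of 180 member values kept their direction and side. The other 17 changed sign, 10 of them when a single library was left out. The remaining 7 were Mapkapk5 at 0.011 with total count, Mapkapk3 at -0.39 and Mapk12 at -0.38 with the highest transcript, and Mapk11 at -0.53, Mapk12 at -0.16, Map2k3 at -0.079 and Map2k6 at -0.091 without saline replicates 2 and 3. For NaBu against saline, 152 of 170 did, and Zfp36 stood at 0.21 without those 2 libraries. Leaving out single libraries, the Ang II against saline values ranged from -0.13 to 0.33 for Mapkapk2, -0.15 to 0.068 for Mapkapk5, -0.22 to 0.55 for Mapk11, -0.10 to 0.23 for Mapk12, -0.10 to 0.32 for Map2k3 and -0.045 to 0.27 for Map2k6. The NaBu against saline values ranged from -0.52 to 0.23 for Mapk11, -0.21 to 0.11 for Map2k6, -0.15 to 0.19 for Zfp36 and -0.29 to 0.053 for Dusp1.

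Deviations from the group means had correlations of 0.00908, -0.0223 and 0.0241 between same-numbered saline and Ang II libraries. Between libraries of unlike number they ran from -0.0297 to 0.0205. Deviations within a group of 3 libraries are tied to each other, so these values cannot exclude a pairing. With the replicate number as a block, Mapkapk2 stood at 0.09 and 0 members were called. No paired analysis was possible for NaBu because its columns are numbered 2, 4 and 6, which share only the number 2 with the other groups, while its samples are titled 1, 2 and 3.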

Other observations

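Immediate early genes outside the 10 members, 18 in number, were lower with NaBu than with Ang II for 15 of them, with a median log2 difference of -0.25 against -0.02 over all genes, and edgeR called 0, against 1.6% of all genes. The unadjusted p was under 0.05 for 3 of them, and DESeq2 called 2. Fos, which encodes a subunit of AP-1, averaged 7.40 CPM with NaBu and 16.5 CPM in Ang II (-1.16, SE 0.45, edgeR adjusted p = 0.17). Dusp1 and Zfp36 are themselves immediate early genes. Of the JNK genes, Mapk9 averaged 105.4 CPM with NaBu and 75.2 CPM in Ang II (0.49, SE 0.105, edgeR adjusted p = 0.0521). For NaBu against Ang II edgeR called 0 of the 12 tested genes of the ERK and JNK modules, 2 had an unadjusted p under 0.05, and DESeq2 called 1.

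The 5 genes whose pattern over the 9 libraries was most like that of Mapkapk2 were Ube2m (Pearson r 0.991), Rps3a (0.989), Setd3 (0.987), Ctnna1 (0.986) and Eif3j (0.986), among 10160 genes compared, as a description without a test. The libraries share 3 groups, so a gene that is high in all NaBu libraries will score high. Ube2m, which encodes a NEDD8-conjugating enzyme, averaged 80.2 CPM in saline, 79.7 CPM in Ang II and 121.5 CPM with NaBu.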
